A study of Camellia sinensis with 9 samples.

Results

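Flower was set against leaf in the tea plant, Camellia sinensis, an evergreen shrub grown for its young leaves. The libraries were chosen by their column names, as 3 flower libraries (flower 1, flower 2 and flower 45) and 3 leaf libraries (leaf 1, leaf 41 and a leaf library here called unnumbered), which make 6 of the 9 libraries of the series. The column of the unnumbered library carries the number 23, which no leaf title has, and it entered as an unnumbered replicate of leaf, the title leaf2 being the only leaf title left for it. The remaining 3 libraries come from root. They helped to choose the tested loci and to estimate the spread between libraries. Their levels are read as an outside point of comparison. Flowers and leaves were untreated, total RNA was sequenced after ribosomal RNA was removed, and the labels name neither cultivar, plant age, flower stage nor whether plants were pooled.

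A leaf is mostly photosynthetic tissue, and in tea it also makes catechins, caffeine and theanine. A tea flower joins sepals, petals, many stamens with pollen, and a pistil, so it holds cell types that a leaf lacks, among them the tapetum, which feeds developing pollen, and the pollen itself. The table holds locus and transcript identifiers without gene names or descriptions, and 0 of them matched the RefSeq gene table of the species (assembly ASM5576180v1). Flower and leaf markers such as MADS-box genes or chlorophyll-binding proteins could therefore not be looked up, so the organ labels were not checked against markers, and results are given for loci by identifier, class, size and level. These are bulk samples, in which fewer cells of a type and less RNA per cell cannot be told apart.

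Levels are FPKM, fragments scaled by transcript length and by library, summed over the transcripts of a locus (61592 loci). Loci that reached 1 FPKM in 3 or more of the 9 libraries were tested (36342 loci). A locus was called when its limma adjusted p was under 0.05 and flower minus leaf in log2(FPKM + 1) came to 1 or more in either direction. Differences on this scale understate the fold of loci with low values. Summed FPKM was 913083 to 1250929 in flower and 623826 to 766516 in leaf, and no library of either organ overlapped the other. At an effective length of 1000 nt, 1 FPKM stood for 17.9 to 22.5 fragments in flower and 28.9 to 32.6 in leaf, so 3 fragments, the limit that a count of 0 allows, were worth 0.133 to 0.168 FPKM in flower and 0.0921 to 0.104 FPKM in leaf. Flower 2 and leaf 41 stood apart from the other libraries of their organs, and results that rest on them are given with and without them.

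The loci with the largest gains had far lower means in leaf and lower ones still in root. The loci with the largest losses were still abundant in flower. They are those with the largest difference of mean FPKM in each direction among called loci that hold exactly 1 reference transcript, span at least 600 nt and do not overlap between the organs. MSTRG.7797 (reference transcript CSA019937.1, 3 transcripts, at 146054 to 148266 on the minus strand) had 8185 FPKM in flower 1, 3357 in flower 2 and 6680 in flower 45, against 26.4 FPKM in leaf 1, 34.3 in the unnumbered leaf library and 21.2 in leaf 41. Every flower library lay far above every leaf library, and flower 2 was the lowest of the flowers. Its difference was 7.68 ± 0.40 (SE, 95% interval 6.78 to 8.57, limma adjusted p = 3.39e-06), and the mean was 222 times that in leaf. In root it was lower still, at 1.79 ± 1.06 FPKM (SD, n = 3).

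MSTRG.47179 (CSA035864.1, plus strand, 12410 to 15952) reached 8180, 3022 and 5196 FPKM in flower 1, 2 and 45, against 0.733, 0.973 and 63.8 FPKM in leaf 1, the unnumbered leaf library and leaf 41. The leaf values did not lie together: leaf 41 alone carried a level above 1 FPKM. The difference was 9.70 ± 1.18 (SE, limma adjusted p = 0.000227) with all libraries and 11.41 without leaf 41 (limma adjusted p = 4.32e-06). In root this locus stood at 0.552 ± 0.179 FPKM (SD, n = 3).

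MSTRG.16967 (CSA004763.1, plus strand, 247513 to 250275) reached 1072, 414 and 1030 FPKM in flower 1, 2 and 45, against 12292, 19322 and 9067 FPKM in leaf 1, the unnumbered leaf library and leaf 41. Its mean fell to 839 ± 368 FPKM (SD, n = 3) in flower, against 13560 ± 5244 FPKM (SD, n = 3) in leaf, a difference of -4.06 ± 0.43 (SE, limma adjusted p = 0.000107). With the root libraries left out of the fit the difference was the same and the limma adjusted p was 0.0623, so this call rests on the spread shared with root, where the locus stood at 3.77 ± 0.0745 FPKM (SD, n = 3). MSTRG.1387 (CSA008917.1, plus strand, 1432177 to 1432962) reached 279, 218 and 933 FPKM in flower 1, 2 and 45, against 5425, 10646 and 11113 FPKM in leaf 1, the unnumbered leaf library and leaf 41. Flower 45 was the highest of the flowers and leaf 1 the lowest of the leaves, and the organs did not overlap. The difference was -4.48 ± 0.71 (SE, limma adjusted p = 0.000944). Together the named gains held 1.09% of summed FPKM in flower and 0.00690% in leaf, and the named losses 0.130% in flower and 3.18% in leaf (means of 3 libraries).

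**Figure D1:**
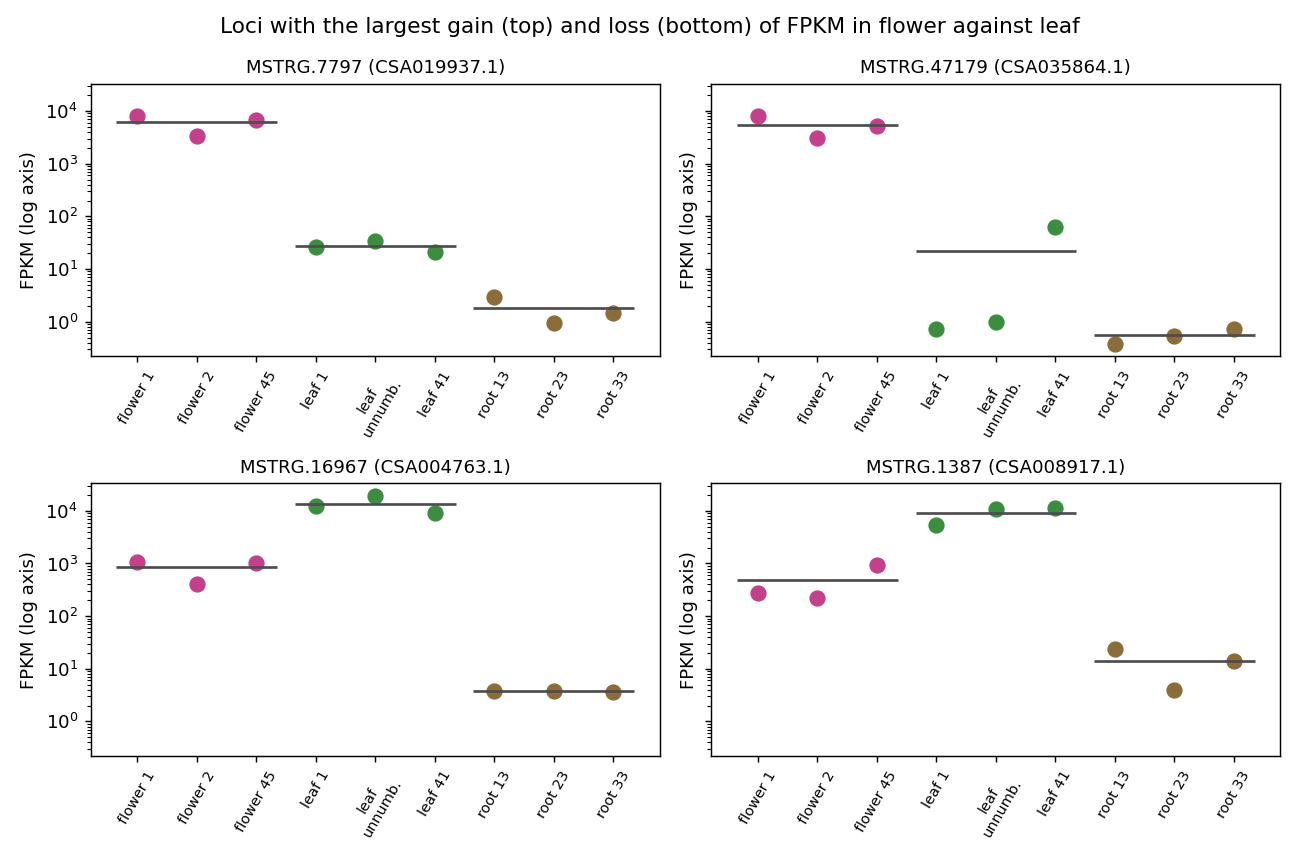
FPKM (log axis) of the 4 named loci in each flower, leaf and root library, with a line at the mean of each organ. The upper loci range from 3022 to 8185 FPKM in flower and reach at most 63.8 FPKM in leaf; the lower loci range from 218 to 1072 FPKM in flower and from 5425 to 19322 FPKM in leaf.

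Over all tested loci, 7375 rose in flower (20.3% of those tested) and 6301 fell (17.3%), so 37.6% were called in either direction. With the root libraries left out of the fit, 6673 of the same tested loci rose and 5397 fell. The groups did not overlap, with every flower library above every leaf library, at 26.7% of tested loci, and with every flower library below at 24.9%. Of the 22666 loci not called, 5211 (14.3% of those tested) had a 95% interval that lay within a difference of 1 in either direction, which bounds them to less than a 2-fold change on this scale. Another 17455 loci (48.0%) had intervals that reached past that bound, so at this spread a 2-fold change could be neither called nor bounded. Abundant loci that could be bounded as steady were fewer: 5208 loci reached 10 FPKM in each of the 6 libraries, and 1195 of these had an interval within the bound, of which 1063 were annotated. The others were either called or had an interval reaching past the bound, and that split was not counted. The count of steady loci thus depends on the spread between libraries too.

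The loci that rose, as called on the deposited FPKM, held most of the tested FPKM in flower. They held 67.8%, 66.5% and 61.0% of the tested FPKM in flower 1, 2 and 45, against 12%, 10.8% and 9.32% in leaf 1, the unnumbered leaf library and leaf 41. The loci that fell held 3.33%, 4.30% and 5.37% in flower 1, 2 and 45, against 41.3%, 44.4% and 42.2% in the same leaf libraries. The loci not called held 30.6% ± 2.67 (SD, n = 3) of the tested FPKM in flower, against 46.6% ± 1.86 (SD, n = 3) in leaf. For a fixed set of loci these shares do not change with the scaling of a library. The set of called loci does change with it, and shares were taken only for the calls on the deposited FPKM. The loci were called on the same values, so the shares describe the calls and do not test them. The median level of a locus that rose was 23.2 FPKM in flower and 2.07 in leaf, and that of a locus that fell was 1.5 FPKM in flower and 10.1 in leaf. In root, which took no part in the difference, the medians were 3.35 FPKM for loci that rose, 3.44 for loci that fell and 3.68 for loci not called.

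Large changes lay on the flower side more than small ones did. At a difference of at least 2 (4-fold on this scale), 4068 loci rose (11.2% of those tested) and 2415 fell (6.65%). At 8-fold, 2162 rose (5.95%) and 864 fell (2.38%), and at 32-fold, 709 rose (1.95%) and 99 fell (0.272%). The share of calls on the flower side was thus 53.9% at 2-fold, 62.7% at 4-fold, 71.4% at 8-fold and 87.7% at 32-fold.

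That balance moved with the scaling. After every library had been brought to the same total FPKM (equal sums), the median difference over all tested loci moved to -0.36, in place of -0.02, and 5503 loci rose while 9192 fell. Under this scaling the split was 3187 higher and 3797 lower at 4-fold, 1749 and 1379 at 8-fold, and 563 and 166 at 32-fold. With median-of-ratios factors the median moved to -0.11 and the split was 6774 higher and 7067 lower at 2-fold, but 2039 and 983 at 8-fold. With upper-quartile scaling the median moved to -0.21, with 6160 higher and 7808 lower at 2-fold and 1900 and 1121 at 8-fold. With quantile normalization the median moved to -0.12, with 6410 and 7075 at 2-fold and 1927 and 1141 at 8-fold. The direction of the split at 2-fold therefore turned under each of these scalings, and at 4-fold under equal sums. At 8-fold and 32-fold more loci were higher than lower in flower under each of them with all 6 libraries in the fit.

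Of the 9192 loci lower under equal sums, 6301 were the loci called lower with the authors' scaling, and of the 5503 higher, 5500 were among the loci called higher. With the equal-sum values centred on their own median difference, 7053 loci were higher and 6374 lower, and 2165 and 931 at 8-fold, a setting chosen after seeing the data.

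**Figure D2:**
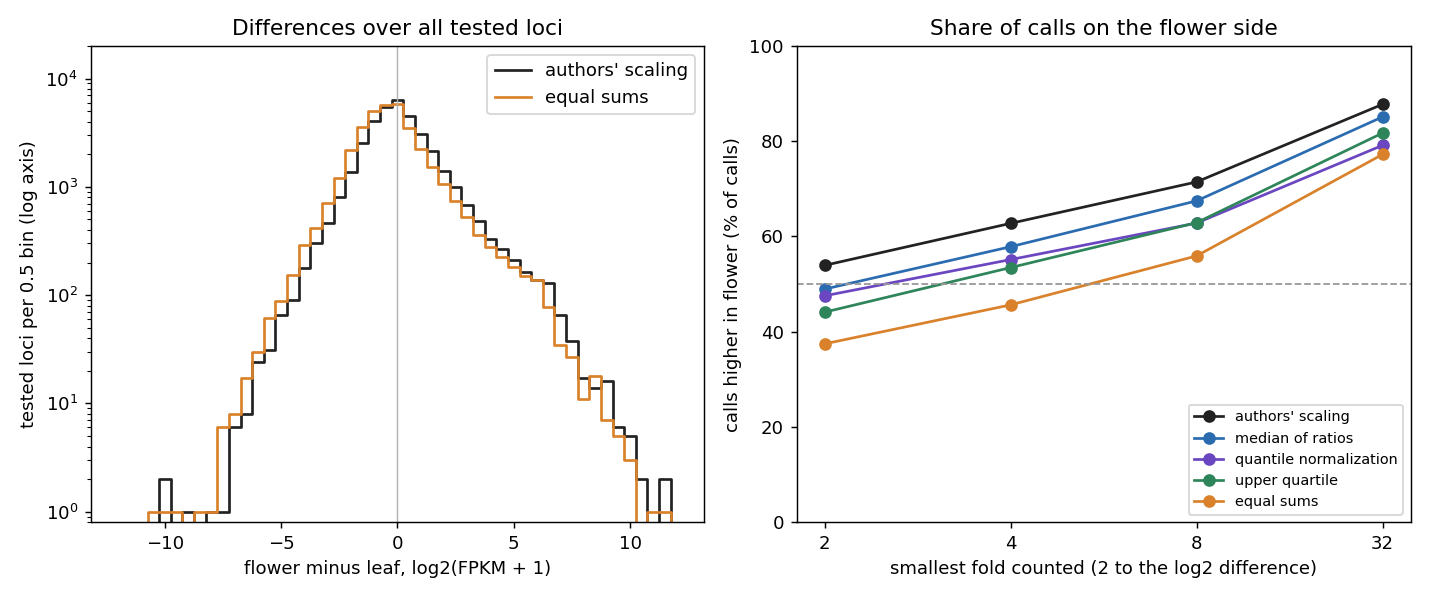
Left, the number of tested loci (log axis) by flower minus leaf difference in log2(FPKM + 1), with the authors' scaling and with equal sums. Right, the share of calls higher in flower at 2-fold, 4-fold, 8-fold and 32-fold under 5 scalings, with a dashed line at 50%; the share grows with the fold in each, from 53.9% to 87.7% with the authors' scaling and from 37.4% to 77.2% with equal sums.

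The flower side also held more loci that were abundant in one organ and low in the other. With the authors' scaling, 235 loci had an FPKM of at least 100 in all 3 flower libraries and under 10 in all 3 leaf libraries, and 25 loci showed the opposite. The 235 loci held 13.3% ± 1.76 (SD, n = 3) of summed FPKM in flower, and the 25 loci 1.99% ± 0.304 (SD, n = 3) in leaf. With equal sums the counts were 193 and 42, with median-of-ratios factors 219 and 29, and with upper-quartile scaling 203 and 34. Among the 235 loci high in flower, 139 were annotated and 82 intergenic, and 189 also had a mean under 10 FPKM in root. Among the 25 loci high in leaf, 23 were annotated and 2 intergenic, and 16 had a mean under 10 FPKM in root. These are to be read beside all 36342 tested loci, of which 19796 were annotated and 15141 intergenic. The root mean lay under 1 FPKM at 8767 tested loci, between 1 and 3 at 8017 and between 3 and 10 at 8723. The levels chose these loci, so the counts are a description.

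Fewer loci passed 1 FPKM in flower and more passed 100 FPKM. Counts of loci past 1 FPKM were 28451, 28878 and 29213 in flower 1, 2 and 45, against 30270, 29235 and 29859 in leaf 1, the unnumbered leaf library and leaf 41. Counts past 100 FPKM were 2205, 1631 and 1608 in the same flower libraries, against 979, 1269 and 922 in the leaf libraries. Neither count overlapped between the organs. In the flower libraries 1 FPKM stood for fewer fragments, a value that mixes depth with the library scaling. The part of either in these counts was not tested. The 10 highest loci took 5.88% ± 0.981 (SD, n = 3) of summed FPKM in flower and 9.15% ± 0.983 (SD, n = 3) in leaf, again without overlap, while the 100 highest took 21.5% ± 1.20 and 23.8% ± 5.99, with leaf 41 alone at 30.4%. The loci needed to hold 50% of summed FPKM numbered 702, 901 and 930 in flower and 1386, 995 and 630 in leaf, with leaf 41 the lowest of all 6. In an exact two-sided permutation test every measure that did not overlap had p = 0.1, the smallest possible with 3 libraries in each organ, and an adjusted p of 0.144 (Benjamini-Hochberg, 13 measures), so none could pass a threshold of 0.05.

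Transcript classes were read from the authors' class codes, which compare each assembled transcript with a reference annotation. Transcripts lying opposite an annotated gene (antisense) held 2.32%, 2.26% and 2.15% of summed FPKM in flower 1, 2 and 45, against 1.13%, 1.09% and 1.34% in leaf 1, the unnumbered leaf library and leaf 41. Intergenic transcripts held 21.9%, 22.0% and 19.7% in the flower libraries and 17.8%, 16.2% and 17.9% in the leaf libraries. Splice variants of annotated genes held 25.3%, 26.9% and 27.2% in flower and 31.8%, 30.7% and 29.1% in leaf. These 3 shares did not overlap between the organs (each exact permutation p = 0.1, adjusted p = 0.144), whereas the share of reference transcripts did, at 42.6% to 44.2% in flower and 43.6% to 46.4% in leaf. The sources do not say whether strand was used, and without it fragments from both strands of such a gene would be mixed. Of the tested intergenic loci, 5837 carried no strand and 9304 carried one. The part of such mixing in the antisense shares was not tested.

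By locus, the annotated class was called most often. Of 19796 annotated loci, 23.9% were higher and 19.8% lower in flower, and of 15141 intergenic loci 15.6% were higher and 14.3% lower, beside 20.3% and 17.3% over all loci. At 8-fold, 1394 annotated loci were higher and 592 lower, a ratio of 2.35, and 682 intergenic loci were higher and 231 lower, a ratio of 2.95. Of 785 antisense loci, 54 were higher and 24 lower at 8-fold. With equal sums the 8-fold ratios were 1.18 for annotated loci and 1.51 for intergenic loci, so intergenic loci had the higher ratio under both scalings. The split at 2-fold turned in every class with equal sums. It was 3396 higher and 5723 lower for annotated loci and 1882 and 3179 for intergenic loci. For antisense loci it was 130 and 181, and for other loci 95 and 109. No test compared the classes.

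Loci were also grouped by their number of assembled transcripts, to be read beside 5.95% higher and 2.38% lower by 8-fold over all tested loci, with no test between the groups. Among loci with 1 transcript, 6.75% were higher by at least 8-fold and 2.12% lower, and among loci with 7 or more transcripts, 3.39% were higher and 3.14% lower. With equal sums these shares were 5.60% higher and 3.29% lower for loci with 1 transcript, and 2.47% higher and 4.81% lower for loci with 7 or more. Loci that join 2 or more reference transcripts, where neighbouring genes are summed, were higher by 8-fold at 3.90% and lower at 2.41%. Loci with exactly 1 reference transcript stood at 7.88% and 3.14%. With equal sums the joined loci turned to 3.13% higher and 4.42% lower, and loci with exactly 1 reference transcript stood at 6.32% and 4.88%. By span, the share higher by 8-fold was largest in the middle and small at both ends. It was 3.51% for loci under 400 nt and 6.70% for loci of at least 400 and under 1000 nt. Loci spanning at least 1000 and under 3000 nt stood at 8.28%. From there it fell to 6.12% for loci of at least 3000 and under 10000 nt, and 3.47% for loci of 10000 nt or more. Span was not crossed with the number of transcripts or of reference transcripts, so how far it goes along with those groups was not tested.

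Loci were then grouped by their level in root, which has no part in the flower minus leaf difference itself. Root did enter the filter and the spread shared by the fit, so the calls are not independent of this grouping. The part of the shared spread in the shares below was not tested. Among the 8767 loci with a root mean under 1 FPKM, 28.6% were higher and 19.6% lower in flower, and 11.8% were higher by at least 8-fold. Such loci passed the filter largely through flower or leaf, so a large share of calls among them follows in part from the filter. Between root means of 3 and 10 FPKM, 16.2% were higher and 17.7% lower, and between 30 and 100 FPKM 24.2% were higher and 15.1% lower. From 1 FPKM in root upward, the share higher by 8-fold lay between 3.80% and 4.50% in every bin. With equal sums, loci under 1 FPKM in root were the only bin with more higher than lower calls, at 25.8% and 25.3%, and also the only bin with more at 8-fold, at 10.3% higher and 5.18% lower.

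**Figure D3:**
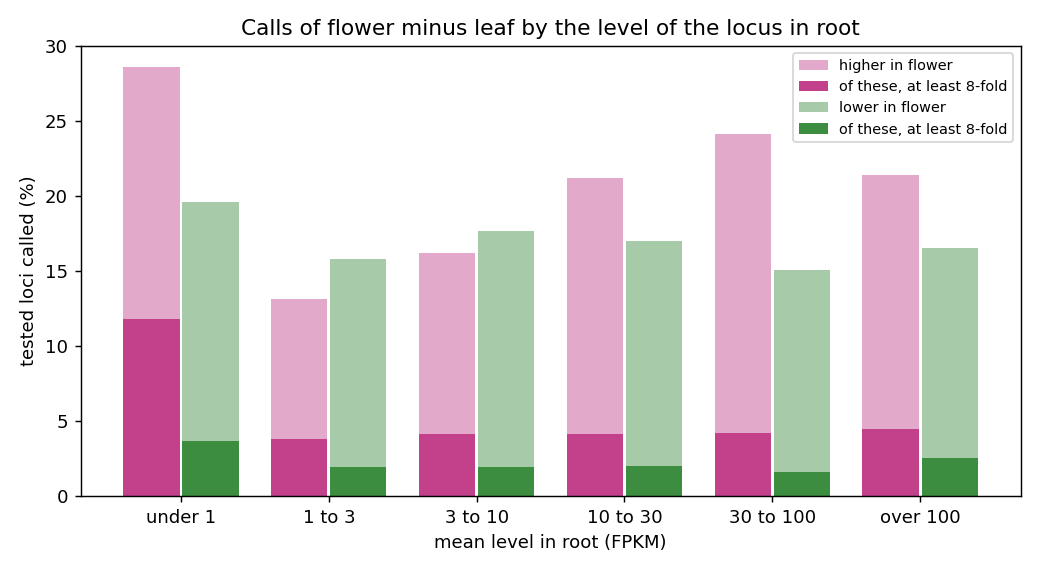
Share of tested loci called higher (left bar of each pair) and lower (right bar) in flower, by the mean level of the locus in root (FPKM), with the authors' scaling; the solid part of each bar is the share changed by at least 8-fold. Loci under 1 FPKM in root have the tallest bars, at 28.6% higher and 19.6% lower.

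Some loci were present in one organ and at or near 0 in the other. At 662 loci all 3 flower libraries reached 1 FPKM while all 3 leaf libraries lay under 0.1 FPKM, and 249 loci showed the opposite. A threshold of 0.1 FPKM lies near the worth of 3 fragments in leaf and below it in flower, so it is the stricter one in flower. Of the loci near 0 in leaf, 347 were listed at 0 in all 3 leaf libraries, and of those near 0 in flower, 175 were listed at 0 in all 3 flower libraries. Most were low where they were present, with a median of 5.61 FPKM in flower for the flower loci and 3.0 FPKM in leaf for the leaf loci. The flower loci comprised 216 annotated, 404 intergenic and 23 antisense loci, and 15 of them had a mean of at least 100 FPKM, with the highest at 669 FPKM. The leaf loci comprised 32 annotated, 199 intergenic and 9 antisense loci, and 2 had a mean of at least 100 FPKM. Root was also under 0.1 FPKM at 432 of the flower loci (65.3%) and at 129 of the leaf loci (51.8%), and it reached 1 FPKM at 77 (11.6%) and 55 (22.1%). All 36342 tested loci comprised 19796 annotated, 15141 intergenic and 785 antisense loci, and 8767 of them had a root mean under 1 FPKM. How many tested loci had a root mean under 0.1 FPKM was not counted, so the shares of 65.3% and 51.8% have no matching base here. The levels chose the restricted loci, and no test compared them with the rest.

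These counts leaned on flower 2 and leaf 41. Without flower 2, 1169 loci were present in flower and near 0 in leaf, and 394 the opposite. Without leaf 41 the counts were 927 and 850, so the leaf count moved far more than the flower count. Leaving out another library always loosens the rule, and without leaf 1 or the unnumbered leaf library the leaf count was 347 and 369. Without flower 45 it was 483.

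The transcript with the largest share of a locus was followed next. Of the loci with several transcripts, 11414 reached 1 FPKM in each of the 6 libraries, and 1 transcript led in all 3 flower libraries at 8264 loci and in all 3 leaf libraries at 8664 loci. Of the 7133 loci with a stable leader in both organs, 184 (2.58%) had a different one in flower than in leaf. Of the 184, 92 were not called as loci, while 66 were higher and 26 lower. Over all tested loci 62.4% were not called, 20.3% were higher and 17.3% lower, and no test compared them. That base also holds loci with 1 transcript and loci under 1 FPKM in some libraries, and the calls among the 7133 loci were not counted. A reference transcript led in flower and a splice variant in leaf at 30 loci, a splice variant in flower and a reference transcript in leaf at 37, and different splice variants in each at 57. Leaving out any 1 library, which loosens the rule, gave 278 to 370 loci. Flower 2 had a leader of its own, with the other flowers in accord, at 1445 loci, against 694 for flower 1 and 676 for flower 45, and leaf 41 at 1329, against 592 for leaf 1 and 589 for the unnumbered library.

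MSTRG.41086 (39239 to 42679 on the minus strand, 5 transcripts, reference transcripts CSA010475.1 and CSA010476.1) was the most abundant locus with a changed leader that was not called. The splice variant MSTRG.41086.2 made up 48.1%, 46.6% and 43.5% of the locus in flower 1, 2 and 45, against 35.8%, 38.1% and 38.1% in leaf 1, the unnumbered leaf library and leaf 41. The reference transcript CSA010475.1 made up 32.2%, 38.6% and 28.8% in the flower libraries, against 44.8%, 45.7% and 43.1% in the leaf libraries. Both shares were apart in every library, while the locus as a whole stood at 712 ± 217 FPKM (SD, n = 3) in flower and 392 ± 122 FPKM (SD, n = 3) in leaf, a difference of 0.87 ± 0.38 (SE, 95% interval 0.01 to 1.72, limma adjusted p = 0.0982). In root the reference transcript had the larger mean share, at 47.2% ± 4.19 against 41.4% ± 5.46 for the variant (SD, n = 3). CSA010475.1 spans positions 39458 to 39925, within the span of the variant (39304 to 41572), so how fragments were divided between them rests on the authors' estimation.

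Flower 2 and leaf 41 were then described against the other libraries of their organs. The typical gap between replicates was 0.33 (median absolute difference in log2(FPKM + 1) over tested loci) for flower 1 and flower 45, against 0.54 and 0.48 for flower 2 with each of them. It was 0.24 for leaf 1 and the unnumbered leaf library, against 0.54 and 0.59 for leaf 41 with each of them. Flower 2 lay at least 4-fold above both other flowers at 444 loci and at least 4-fold below both at 1070 loci. For flower 1 these counts were 108 and 115, and for flower 45 they were 76 and 53. Leaf 41 lay at least 4-fold above both other leaves at 927 loci and below both at 1198, where leaf 1 had 55 and 29 and the unnumbered library 34 and 25. Between the organs, 349 of the 444 and 896 of the 1070 loci of flower 2 were not called, and 752 of the 927 and 899 of the 1198 loci of leaf 41, beside 62.4% of all tested loci. A wide spread within an organ, for which these loci were picked, makes a call harder by construction.

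The levels of these loci in root were read beside them. Of the 1198 loci low in leaf 41, root was below the mean of the other leaves at 1140 (95.2%), and the median level was 0.916 FPKM in leaf 41, 16.7 in the other leaves, 4.96 in flower and 0.966 in root. Of the 927 loci high in leaf 41, root was above the other leaves at 797 (86.0%), with medians of 15.9 FPKM in leaf 41, 0.785 in the other leaves, 2.79 in flower and 6.91 in root. Flower lay on the side of leaf 41 at 81.2% and 65.6% of the same loci. Since the loci were picked for extreme values in the other leaves too, root or flower falls on the side of the departing library in part by that choice. Root lay on that side at 87.2% of the 1070 loci low in flower 2, 67.8% of the 115 low in flower 1 and 94.3% of the 53 low in flower 45. For the 29 loci low in leaf 1 it did so at 55.2%, and for the 25 low in the unnumbered leaf library at 84%. At loci high in a library, root lay on its side at 66.2% for flower 2, 55.6% for flower 1 and 60.5% for flower 45. The same share was 45.5% for loci high in leaf 1 and 44.1% for loci high in the unnumbered leaf library. Loci low in flower 2 had medians of 0.130 FPKM in flower 2, 11.1 in the other flowers, 4.02 in leaf and 2.14 in root, and 357 of them (33.4%) were annotated, against 54.5% of all tested loci. What sets these libraries apart was not tested, and the labels give no stage, date or plant for them.

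**Figure D4:**
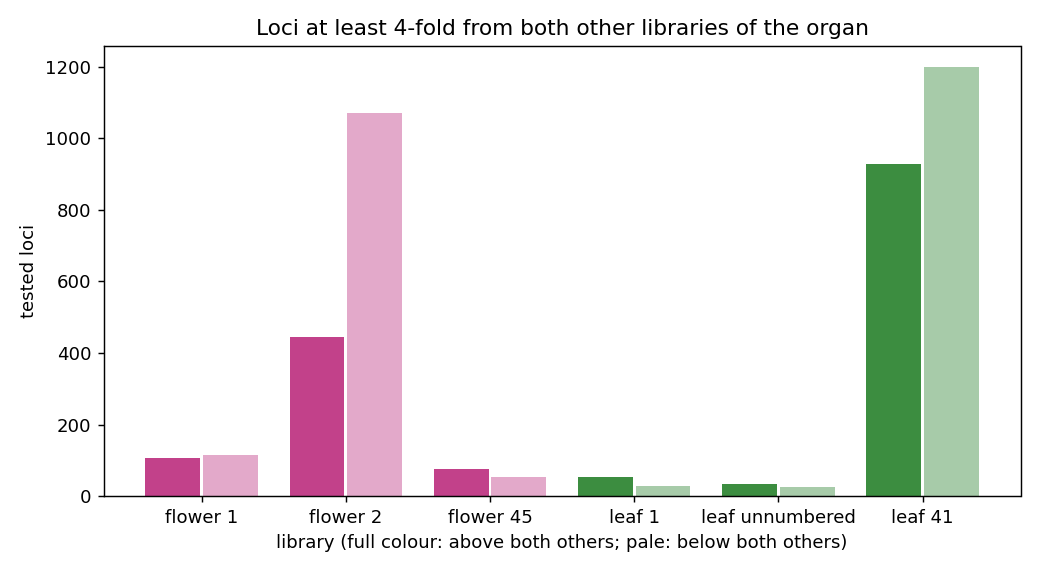
Number of tested loci at which each library lay at least 4-fold above both other libraries of its organ (full colour) or below both (pale), on the log2(FPKM + 1) scale. Flower 2 reaches 444 and 1070 loci and leaf 41 reaches 927 and 1198, while no other library passes 115.

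Each library was next held out, the loci were called from the remaining libraries, and the held-out library was placed between the organ means (1 for the mean of the other flowers, 0 for the mean of the other leaves). The tested loci were those chosen with all 9 libraries, so the held-out library had a part in that choice though not in the call. Flower 1 lay on the flower side of the midpoint at 95.6% of 6611 loci called higher without it and at 95.3% of 5246 called lower. Flower 45 did so at 90.8% of 7094 and 93.0% of 5828 loci, and flower 2 at 83.0% of 7643 and 86.3% of 6087 loci. At loci called higher, the median place was 1.11 for flower 1, 0.93 for flower 2 and 0.84 for flower 45, so flower 2 had the widest spread of places among the flowers (quartiles 0.65 and 1.20) and flower 45 the median furthest from 1. Leaf 1 lay on the leaf side at 96.7% of 6790 loci called higher in flower and 92.0% of 5651 called lower, and the unnumbered library at 94.9% of 6888 and 93.5% of 5505. Leaf 41 did so at 88.7% of 7278 loci called higher in flower, but at 71.5% of 6744 loci called lower. At those 6744 loci its median place was 0.23, where the other leaves had 0.06 and -0.03 at the loci called without them, and at 677 of them it lay at or beyond the flower mean. At the loci called higher in flower its median place was 0.00; no test compared the directions. Flower 2 lay at or beyond the leaf mean at 473 (6.19%) of the loci called higher without it.

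**Figure D5:**
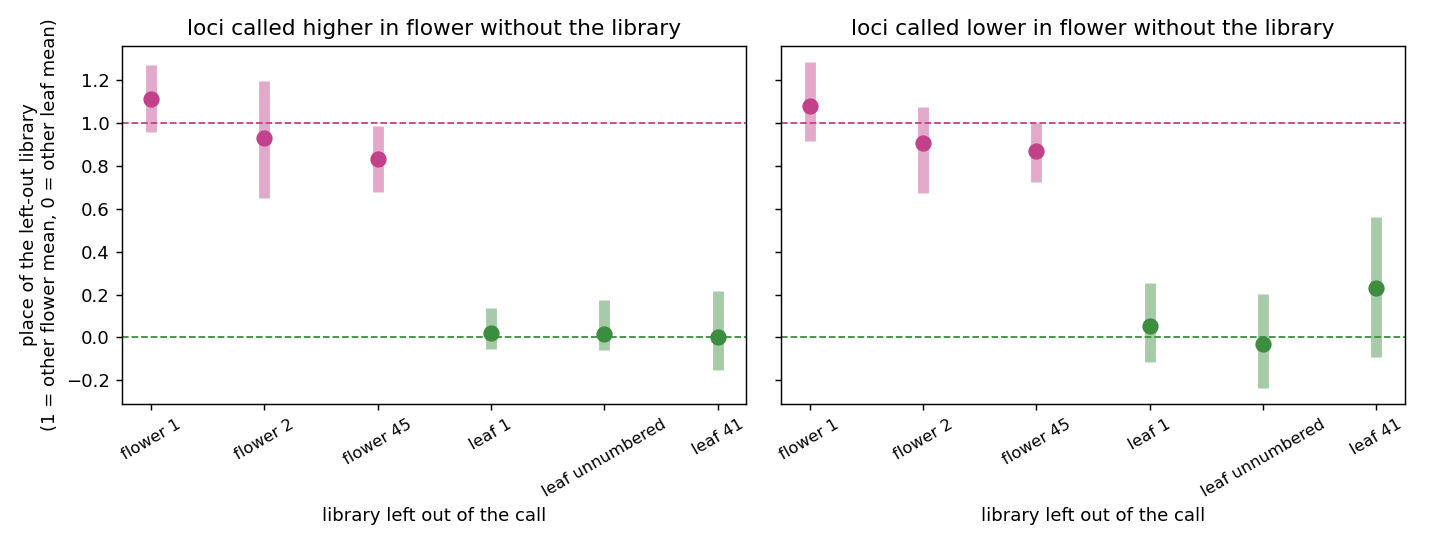
Place of each held-out library at loci called without it, where 1 is the mean of the other flower libraries and 0 the mean of the other leaf libraries; points are medians over loci and bars the middle quartiles. At loci lower in flower, leaf 41 has a median of 0.23 and a bar that reaches 0.56, and flower 45 has medians of 0.84 and 0.87 in the left and right panels.

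The split of large changes also moved with leaf 41. Without it and with the authors' scaling kept, 8-fold gains numbered 2195 and 8-fold losses 1136, and 780 of the 864 loci first counted as lower by 8-fold remained among them. Without flower 2 the counts were 2260 and 913, and without both libraries 2282 and 1147. Equal sums and the loss of leaf 41 together gave 1760 higher and 1733 lower at 8-fold, and with flower 2 left out as well 1788 higher and 1789 lower. At 32-fold the last setting gave 521 higher and 264 lower. The excess of 8-fold gains in flower was thus present with the authors' scaling and absent with equal sums when flower 2 and leaf 41 were left out, while the excess at 32-fold was present in both.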

How the data were processed

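RNA was sequenced from 3 flower, 3 leaf and 3 root libraries. The authors deposited 1 table of FPKM per assembled transcript, made with HISAT2, StringTie and Cuffnorm per the submitters' processing notes; their versions, the strand setting, the library scaling and the build are not given there, and the positions lie on scaffolds that the table does not name. All columns of values were used (0 left out). FPKM were summed by locus and tested on log2(FPKM + 1) in R 4.3.3 by limma 3.58.1, with a variance trend, 1 mean per organ and all 9 libraries sharing the spread (6 residual degrees of freedom), with Benjamini-Hochberg adjustment. The test was checked on simulated data. A class of annotated means a locus with a reference transcript, intergenic one with class code u alone, antisense one with code x and no reference transcript. Fragment worth was read from steps in low FPKM of unstranded single-transcript loci, where 100% of values lay within 0.05 of a whole number after a length correction of 203 to 211 nt. It covers counting error only. Named loci follow the rule given beside them, and the loci and settings were chosen with earlier results of these data known. The labels do not say whether replicates are separate plants, and p-values therefore measure only a spread between libraries that may be technical. Alternatives were 5 scalings, pseudocounts, filters, features, weights and left-out libraries.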

Additional observations from a re-analysis of the deposited data

How the results depend on the processing

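The 4 named loci kept their direction in every alternative, and their calls in all but 1, MSTRG.16967 with flower and leaf libraries only (adjusted p = 0.0623, limma). Median differences over tested loci were -0.36 with equal sums, with or without loci under 400 nt in the sum, -0.34 with equal sums without leaf 41, -0.33 with equal sums without both flower 2 and leaf 41, -0.11 with median-of-ratios factors, -0.21 with the upper quartile, -0.12 with quantile normalization, 0.14 with a filter of FPKM 5, 0.13 with reference transcripts only, and -0.0485 to 0 with a library left out. Loci lower by 8-fold numbered 1379 with equal sums, 1371 with short loci left out of the sum, 1733 with equal sums without leaf 41 and 1789 without flower 2 as well. Loci lower in flower were 10098 and 10372 under the last pair of settings. A pseudocount of 0.1 gave 3789 loci higher and 2470 lower by 8-fold; a pseudocount of 5, which shrinks low values by construction, gave 1060 and 292, and 3100 lower in all. A filter of FPKM 5, with 20545 loci tested, gave 4077 lower. Reference transcripts only, with 12900 tested, gave 3095 higher and 2122 lower, and 994 and 361 by 8-fold. With a library left out, calls ranged from 6611 to 7643 higher and 5246 to 6744 lower, and 1985 to 2347 and 786 to 1136 by 8-fold. Loci present in flower and near 0 in leaf numbered 167 at a level of FPKM 5 and 751 to 1169 with a library left out; those present in leaf and near 0 in flower 397 with near 0 set at 0.2, 23 at FPKM 5 and 328 to 850 with a library left out. Changed leaders numbered 90 at FPKM 5 and 278 to 370 with a library left out. Without loci under 400 nt, flower minus leaf was 5.40 percentage points for intergenic and -2.74 for reference transcripts, in place of 3.92 and -1.35. Settings with centring, with loci of 400 nt or more, without joined loci, and with equal sums and left-out libraries were chosen after seeing the data. No paired analysis was possible because flower and leaf columns share only the number 1, the column left for the title leaf2 being numbered 23. Gene lists and markers could not be applied without gene names.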
